A study of Mus musculus with 2 samples.

Results

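Meningeal fibroblasts are the collagen-producing cells of the membranes around the brain. In this work they were cells with at least 1000 unique molecular identifiers (UMIs, counts of single messenger RNA molecules) and under 10% mitochondrial UMIs that met a marker rule. The rule asked for a UMI in 3 or more of Col1a1, Col3a1, Dcn, Lum and Igf2, and for none in Cldn5, Rgs5 and C1qa, which mark endothelial cells, mural cells and macrophages. It found 417 of 37116 cells, 146 of 10938 wild-type cells and 271 of 26178 Gmnc-/- cells, called knockout here. Both libraries came from C57BL/6J mice at postnatal day 0 and held dissociated lateral and dorsal cortex with the hippocampus, each as a pool of 4 animals from 2 litters, and the wild-type animals were littermates. Gmnc encodes a coiled-coil protein of the multiciliated cell programme, and the series asks what Cajal-Retzius neurons with p73 and the protein Reelin do in cortical morphogenesis.

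The meninges have an inner pial, a middle arachnoid and an outer dural layer, and fibroblasts of each layer express their own set of genes. Pial fibroblasts lay down the basement membrane on which radial glial endfeet and Cajal-Retzius neurons rest. Arachnoid fibroblasts form a barrier with junction proteins and solute carriers. Meningeal cells also release retinoic acid and CXCL12, a chemokine that keeps Cajal-Retzius neurons at the surface of the cortex.

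There is 1 library per genotype, so nothing below could be checked against replicates, and every comparison is between these 2 libraries and not between the genotypes. Where 2 values stand together, the wild-type value comes first. Parentheses hold 95% intervals, which speak to counting error alone. The wild-type library held 88905819 UMIs in 13033 barcodes and the knockout library 155482657 in 27663, with 85 barcode sequences in common. Scrublet called 4.44% of wild-type and 23.1% of knockout cells as doublets, droplets with RNA of more than 1 cell. It was given expected rates of 10.4% and 22.1%, an assumed 0.8% per 1000 barcodes. Cells with a Y-linked UMI and no Xist made up 18.0% and 35.1% of the cells that could be sexed, so the pools differ in their mix of sexes. Gmnc gave 66 and 125 UMIs over all kept cells and 0 UMIs in members of either library. Which exons the allele lacks is not given in the labels, so this count checks nothing about the genotypes.

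The members carried fibroblast genes that the rule did not use. At least 3 of Col1a2, Pdgfra, Foxc1, Tbx18, Ogn, Serping1, Cped1 and Islr were found in 137 of 146 wild-type members, or 93.8% (88.6% to 97.1%), and in 251 of 271 knockout members, or 92.6% (88.8% to 95.4%). Among the other cells the shares were 1.20% and 0.587%. After every cell was thinned to 2000 UMIs, which left out 13 members in each library, they were 84.2% (76.9% to 90.0%) and 70.5% (64.6% to 76.0%), against 0.224% and 0.0971% of other cells. Col1a2, the second chain of type I collagen, was then found in 91.0% of wild-type and 89.5% of knockout members and in 0.501% and 0.490% of neuron-marker cells, which should lack it. Fibroblast RNA outside the rule was therefore present in most members of both libraries. A droplet with RNA of a fibroblast and of another cell passes this check too. Scrublet called 11.0% of wild-type and 45.0% of knockout members doublets, so the check does not show that each member is a single fibroblast.

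**Figure D1:**
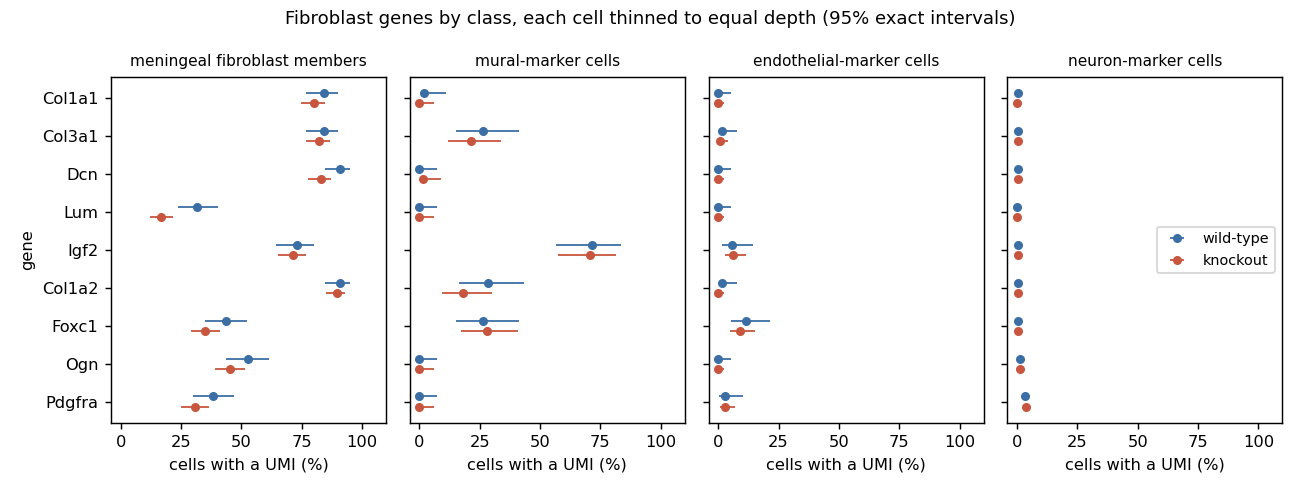
Share of cells with a UMI of 9 fibroblast genes (vertical axis) after thinning each cell to 2000 UMIs, in percent (horizontal axis), for members and 3 other marker classes. Points are libraries with exact 95% intervals as bars, and members stand far to the right for Col1a1, Dcn and Col1a2, while mural-marker cells share Igf2 (71.4% and 70.5%) and some Col3a1 (26.5% and 21.3%).

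The markers used by the rule chose the members, so their levels are a description. Levels are in CPM, the field's depth-scaled count unit, over the UMIs of all members of a library. Col1a1 was at 1579 CPM (wild-type) and 1512 CPM (knockout), and Col3a1, which pairs with it in collagen fibrils, at 1446 and 1487. Dcn (decorin), a small proteoglycan that coats collagen fibrils, was at 1515 and 1187, its relative Lum (lumican) at 184 and 97.0, and the imprinted growth factor gene Igf2 at 894 and 987. Of each library's UMIs of Col1a1, 88.8% and 84.2% lay in members, and of Igf2 61.7% and 61.6%. Members just inside the threshold, with 3 markers, numbered 18 and 38 and had a median of 6 and 9.5 marker UMIs. Cells just outside, with 2 markers and no exclusion gene, numbered 18 and 16 and had 2 and 4.5. Another 25 and 27 cells had 3 or more markers and were left out by Cldn5, Rgs5 or C1qa. Members with all 5 markers numbered 97 and 105.

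The members' share was 1.33% (1.13% to 1.57%) among wild-type cells and 1.04% (0.916% to 1.17%) among knockout cells, a ratio of 0.776 (0.632 to 0.955). Both vascular classes stood lower by a like amount, with a ratio of 0.716 (0.552 to 0.933) for endothelial-marker cells, 94 and 161 in number, and 0.615 (0.428 to 0.889) for mural-marker cells, 53 and 78 in number. Erythroid-marker cells, 40 and 73 in number, had a ratio of 0.763 (0.512 to 1.15), so the lower share was not particular to members and vascular classes. Neuron-marker cells had a ratio of 1.05 (1.02 to 1.08). A smaller share of members and a larger share of other cells cannot be told apart.

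The share depended on the cell filter and on doublets. With 2000 UMIs and under 5% mitochondrial UMIs asked of each cell the ratio was 0.946 (0.739 to 1.22), with 87 and 252 members. Wild-type cells had more mitochondrial RNA, with a median of 4.19% in wild-type and 1.76% in knockout members. Without doublets the ratio was 0.595 (0.467 to 0.759), since 16 wild-type members (11.0%) and 122 knockout members (45.0%) were called doublets. Endothelial-marker and mural-marker cells showed the same contrast, with 4.26% against 45.3% and 5.66% against 39.7% doublets. In female-pattern cells alone the ratio was 0.824 (0.615 to 1.11), and in male-pattern cells 0.888 (0.558 to 1.46).

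**Figure D2:**
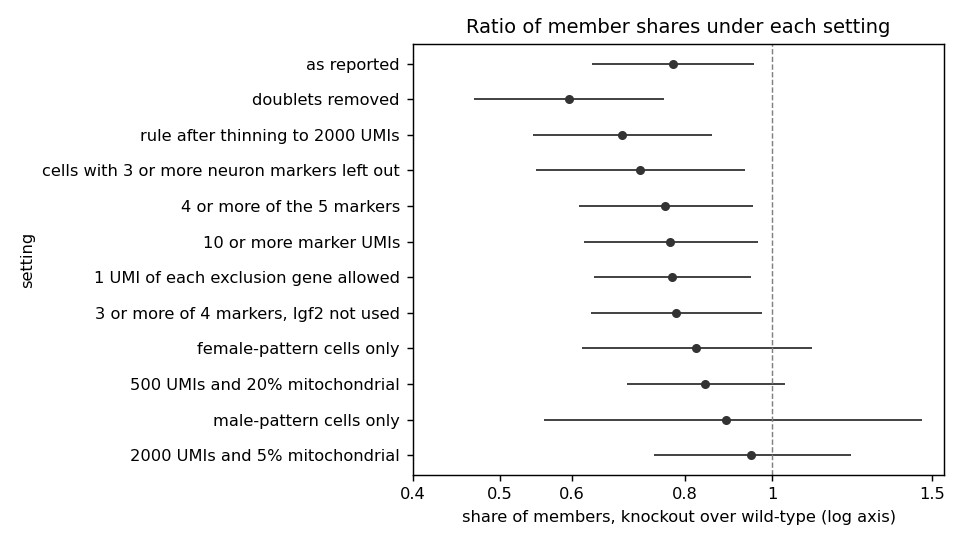
Ratio of the share of members, knockout over wild-type (horizontal log axis), as reported and under each other setting (vertical axis), with exact conditional 95% intervals. All points lie below 1, from 0.595 without doublets to 0.946 with the strict cell filter, and 4 of the intervals cross 1.

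Members of both libraries, clustered together without the 8 rule genes, fell into 7 sub-groups. The clustering used the 1000 most variable of the remaining genes in these same cells. Levels and ratios within a sub-group are therefore descriptions that the clustering itself can set, and sizes are not compared between libraries. Sub-group 0 (43 wild-type and 67 knockout members) was led by Asic2, Nkd2, Il34, Lama1 and Col4a6. It carried the highest summed level of the 8 pial-associated genes, 5847 and 5561 CPM. Lama1, a laminin chain of the pial basement membrane, was at 909 (808 to 1021) and 858 (760 to 965) CPM there, against 125 and 189 CPM in sub-group 2.

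Sub-group 1 (31 and 49 members) was led by Mia, Mgp, Hs3st1, Nov and Fxyd5. The 8 dura-associated genes summed to 6166 and 5622 CPM there, against 107 and 92.6 CPM in sub-group 0. Mgp, an inhibitor of calcification, was at 3420 (3255 to 3592) and 3246 (3072 to 3426) CPM.

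Sub-group 2 (42 and 34 members) was led by Ptgds and Trpm3. Its 8 arachnoid-associated genes summed to 42242 and 50658 CPM, nearly all of it Ptgds, the prostaglandin D synthase that also carries lipids in cerebrospinal fluid. Doublets made up 4.65% and 4.48% of sub-group 0, 0% and 6.12% of sub-group 1, and 2.38% and 41.2% of sub-group 2.

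Sub-groups 3, 4 and 5 held brain RNA beside the fibroblast markers. Sub-group 3 (9 and 62 members) was led by Kcnq3, Lrfn5 and Unc5d, sub-group 4 (7 and 25) by Dlx6os1 and by Gad1 and Gad2 of inhibitory neurons, and sub-group 5 (4 and 25) by Lhfpl3, Fabp7 and Hes5 of glia. Scrublet called 77.8% and 87.1%, 42.9% and 80.0%, and 75.0% and 96.0% of them doublets. At least 3 of the 8 further fibroblast markers were still found in 87.3% to 90.6% of the members of these sub-groups. Sub-group 6 (10 and 9 members) was led by Cdc20, Ube2c and Birc5, genes of dividing cells, and 0% and 44.4% of it were called doublets.

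**Figure D3:**
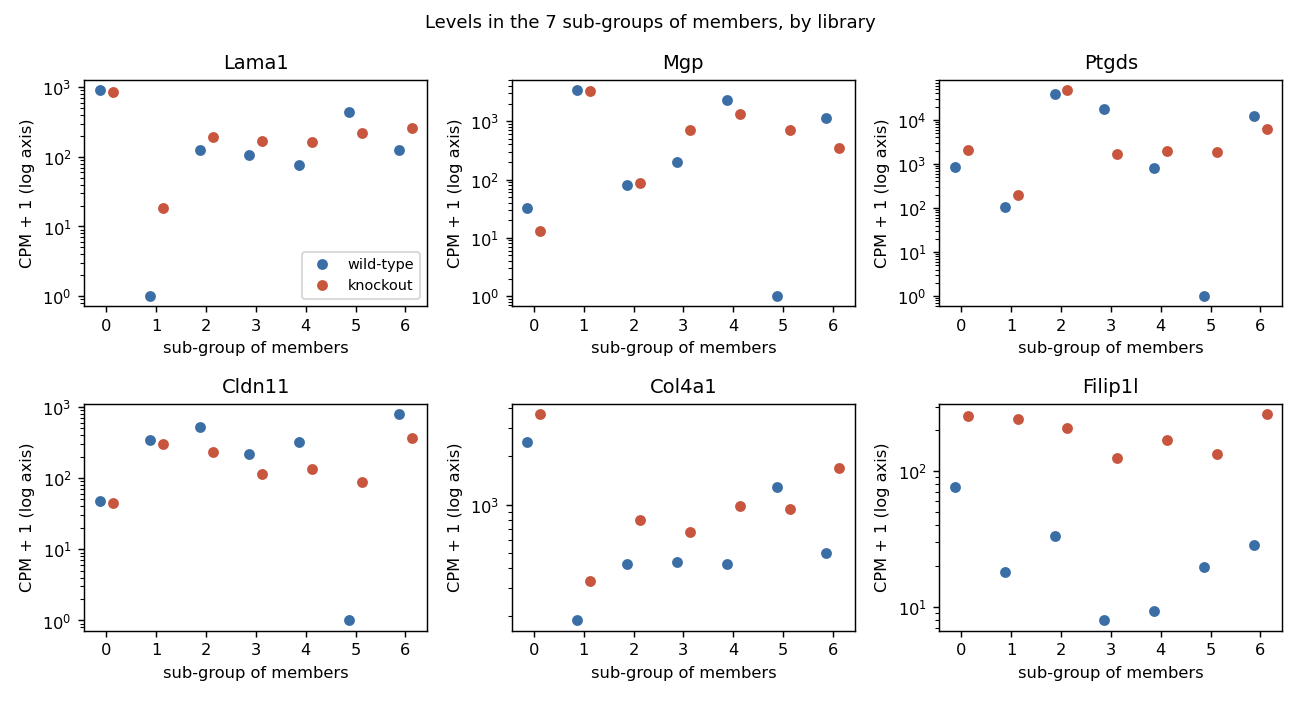
CPM plus 1 on a log axis (vertical) of 6 genes in each of the 7 sub-groups (horizontal), with 1 point per library. Lama1 peaks in sub-group 0, Mgp in sub-group 1 and Ptgds in sub-group 2, and Filip1l lies higher in the knockout library in all 7 sub-groups.

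Among members, 11700 genes had 20 or more UMIs over both libraries. Log2 ratios were taken after adding 5 CPM to each value, so those of low genes are understated. Ratios of levels that are given with an interval had nothing added. By this measure 764 genes (6.53%) were 2-fold or more higher in the knockout library and 123 (1.05%) were 2-fold or more lower. The median log2 ratio, knockout over wild-type, was 0.16, with 63.5% of genes above 0 and 36.5% below. Without doublets the counts were 257 higher and 231 lower of 10336 genes, so that higher genes made up 52.7% of the calls in place of 86.1%. With median-of-ratios scaling, which moves every log2 ratio down by 0.18, there were 525 higher and 209 lower (71.5%), and in sub-groups 0 to 2 alone 159 and 102. In the other cells the same genes gave 16 higher and 97 lower. Members held 1974049 and 2174185 UMIs of the libraries' 88905819 and 155482657, so the counts of members and other cells are not at like depth.

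Neuronal RNA was higher in knockout members, which also held more doublets. All 13 genes of the neuron RNA list lay above 0, against 63.5% of all genes, and 8 of them were 2-fold or more higher, against 6.53%, with a median log2 ratio of 1.21. Dcx, a microtubule protein of young neurons, was at 58.8 (48.6 to 70.5) and 181 (163 to 200) CPM, and Stmn2, which acts on growth cone microtubules, at 98.8 (85.4 to 114) and 259 (238 to 282). Among the 15 highest genes, Lhfpl3 was at 2.03 (0.552 to 5.19) and 52.0 (42.8 to 62.5) CPM, and Ptprz1, a receptor of glial progenitors, at 108 (93.9 to 123) and 574 (543 to 607). Cntnap2, Cadps and the Reelin receptor gene Lrp8 had log2 ratios of 2.65, 2.21 and 2.24.

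Without doublets these values were smaller, 0.60 for the list median, 0.71 for Lhfpl3, 0.71 for Dcx, 1.18 for Cntnap2 and 1.11 for Lrp8. Endothelial-marker and mural-marker cells gave the list medians of 1.16 and 1.14. The 5 neuron markers summed to 355 CPM in wild-type and 879 CPM in knockout members, and 54 members (37.0%) and 114 members (42.1%) had 3 or more of them. Radial glia and astrocyte markers were at 1312 and 1764 CPM in sum, and 20.5% and 27.3% of members had 3 or more of these 5 genes. Choroid plexus markers summed to 69.9 and 67.2 CPM and osteogenic markers to 98.3 and 113. The 5 macrophage markers, of which the rule sets C1qa to 0, were at 7.60 and 5.52 CPM, and 4 erythroid markers at 1.01 and 5.06. List counts below are also given without doublets, and the part of neural RNA in them was not tested otherwise. Over all genes, 63.5% lay above 0 with every member used. Without doublets 6031 of 10336 genes did, with a median log2 ratio of 0.08.

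Filip1l, which is named for its likeness to a filamin-interacting protein and was chosen by its rank among the 15 highest, moved little with doublet removal. It had 62 wild-type and 410 knockout UMIs, or 31.4 (24.1 to 40.3) and 189 (171 to 208) CPM. The log2 ratio with 5 CPM added was 2.41, and the ratio with nothing added was 6.00 (4.59 to 7.97). Its log2 ratio was 2.56 without doublets and lay between 2.09 and 2.56 under all other settings. It was higher in the knockout library in each of the 7 sub-groups. It was at 75.5 and 253 CPM in sub-group 0 and at 17.1 and 243 CPM in sub-group 1. Sub-groups 3, 4 and 5 each held 1 wild-type UMI of it, so their ratios are loose. In the other cells its log2 ratio was 1.59. The gene lies on the plus strand of chromosome 16, from 57353093 to 57573126 in mm10 (GENCODE).

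Genes of the arachnoid list were lower in knockout members as a group. All 8 lay below 0, against 36.5% of all genes, with a median log2 ratio of -0.77 beside 0.16 over all genes, and 3 were 2-fold or more lower, where 1.05% of all genes were. The list median was -0.05 in the other cells.

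Ptgds was at 15242 (15071 to 15415) CPM in wild-type and 8263 (8142 to 8385) CPM in knockout members. Cldn11, the claudin of arachnoid tight junctions, was at 389 (362 to 417) and 163 (147 to 181) CPM, and Cdh1, the E-cadherin of arachnoid barrier cells, at 45.1 (36.2 to 55.5) and 15.6 (10.8 to 21.9). Crabp2, which carries retinoic acid to its nuclear receptor, was at 174 (156 to 194) and 78.2 (66.9 to 90.9) CPM.

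Aldh1a2, the enzyme that makes retinoic acid, was at 397 (370 to 426) and 251 (230 to 273) CPM, Slc6a13, a GABA transporter, at 654 (619 to 691) and 493 (464 to 523), and Wnt6, a secreted signal, at 73.5 (62.0 to 86.4) and 47.8 (39.1 to 58.0). Angptl2 was at 40.5 (32.1 to 50.4) and 37.3 (29.6 to 46.3), a difference not detectable at this depth.

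These values rested on few cells and moved with the processing. The 15 wild-type and 28 knockout members richest in Ptgds held 88.0% and 88.2% of its UMIs. Under the strict cell filter Ptgds had a log2 ratio of 0.04 in place of -0.88, and the list median was -0.38. Without doublets they were -1.57 and -0.84, and in sub-groups 0 to 2 alone -0.21 and -0.29. Within sub-group 2, for which Ptgds is the leading gene, it was at 39076 (38584 to 39573) and 47588 (46825 to 48360) CPM. It was lower in knockout members in sub-group 3, at 17433 and 1646 CPM, and in sub-group 6, at 12263 and 6288 CPM, and higher in the other 5 sub-groups. Doublet calls took 2.38% and 41.2% of sub-group 2, and in sub-groups 0 to 2 without doublets the log2 ratio of Ptgds was -1.56.

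Cldn11 was at 525 (469 to 585) and 231 (181 to 291) CPM in sub-group 2 with a ratio of 0.441 (0.337 to 0.571), and its log2 ratio lay between -1.89 and -0.79 under all settings. For Crabp2 that range was -1.28 to -0.61. Counted per cell at equal depth, 58.6% (49.8% to 67.1%) of wild-type members and, of knockout members, 46.1% (39.9% to 52.4%) had 2 or more of the 8 arachnoid genes. The ratio was 0.786 (0.586 to 1.06). Its interval is made for rare counts and is too wide for shares of this size. It therefore cannot decide whether the difference exceeds counting error, which was not tested otherwise. Without doublets the shares were 60.0% and 51.8%.

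**Figure D4:**
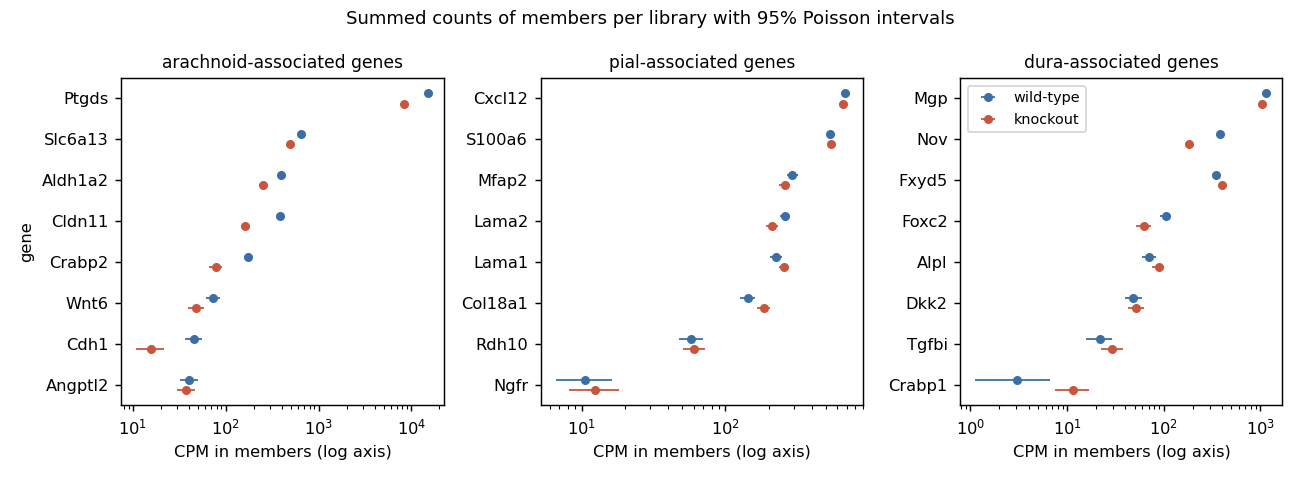
CPM in members on a log axis (horizontal) of the 8 arachnoid-associated, 8 pial-associated and 8 dura-associated genes (vertical), with 95% Poisson intervals and 1 point per library. The knockout point lies left of the wild-type point for all 8 arachnoid genes, while the pial and dura genes lie on both sides, 5 higher and 3 lower in each list.

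The starts of 2 arachnoid genes are shown for context, since Ptgds is the most abundant gene of the list and Cldn11 was lower in knockout members under every setting. Each window runs from 250 bases before to 50 bases after the gene's start in RefSeq on GRCm38.p6, read 5′ to 3′ on the gene's strand, Ptgds at chr2:25469700-25469999 (minus strand) and Cldn11 at chr3:31149670-31149969 (plus strand). Capitals mark CCAAT or its reverse complement ATTGG, the box bound by NF-Y, and none of these windows holds TATAAA or TTTATA. Cldn11 has ATTGG starting at 66 and 35 bases before its start, and Ptgds has neither form. Of 32851 promoter windows of this length, 37.4% hold CCAAT or ATTGG and 13.6% hold TATAAA or TTTATA.
Ptgds: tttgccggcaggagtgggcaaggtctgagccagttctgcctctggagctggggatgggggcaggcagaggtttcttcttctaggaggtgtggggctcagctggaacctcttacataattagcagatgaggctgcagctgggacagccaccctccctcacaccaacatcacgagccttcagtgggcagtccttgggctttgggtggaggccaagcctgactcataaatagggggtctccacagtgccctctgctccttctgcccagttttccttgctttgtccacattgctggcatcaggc
Cldn11: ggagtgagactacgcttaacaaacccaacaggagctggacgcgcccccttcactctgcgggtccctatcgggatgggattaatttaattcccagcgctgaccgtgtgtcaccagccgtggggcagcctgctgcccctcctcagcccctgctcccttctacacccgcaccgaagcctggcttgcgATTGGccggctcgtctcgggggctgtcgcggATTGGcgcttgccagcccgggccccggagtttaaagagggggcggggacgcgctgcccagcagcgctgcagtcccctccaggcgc

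Carriers and junction proteins of the meningeal barrier were mostly lower. Lists can share genes, so this count may not be independent of that of the arachnoid list. Of 23 genes in this list, 18 lay below 0 and 5 above, where 36.5% of all genes lay below, with a median of -0.41. Of these, 6 were 2-fold or more lower, against 1.05% of all genes. Slc6a20a, a proline and betaine carrier, was at 332 (307 to 359) and 163 (147 to 181) CPM, Slc7a11, the cystine-glutamate exchanger, at 339 (314 to 366) and 160 (144 to 178), and Slc22a8, an organic anion carrier, at 58.8 (48.6 to 70.5) and 25.3 (19.1 to 32.9). Gap junction genes split. Gjb2 was at 89.2 (76.5 to 103) and 38.6 (30.8 to 47.8) CPM and Gjb6 at 186 (167 to 206) and 91.5 (79.3 to 105), while Gja1, the most widespread connexin gene, was at 872 (831 to 914) and 878 (839 to 918). Without doublets the list median was -0.13, with 14 genes below 0 and 9 above, and Slc6a20a, Slc7a11 and Gjb2 had log2 ratios of -0.93, -0.82 and -0.72. Trpm3, an ion channel gene strongest in sub-group 2, was at 4335 (4244 to 4428) and 2187 (2125 to 2250) CPM over all members. It was at 10628 and 10839 CPM in sub-group 2, where it is the second leading gene, and lower in knockout members in sub-groups 1 (237 and 69.4 CPM), 3 (3952 and 766 CPM) and 6 (4403 and 2116 CPM). Its log2 ratio was -0.06 under the strict cell filter.

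Pial and dural genes showed no common direction. The pial list had 5 genes above and 3 below 0, where 63.5% of all genes lay above. Its median was 0.03, and without doublets 7 lay above and 1 below with 0.42. The strict cell filter gave -0.28. Cxcl12 was at 677 (641 to 715) and 655 (622 to 690) CPM and S100a6, a calcium-binding protein gene, at 535 (504 to 569) and 540 (510 to 572), both within counting error. The dura list had 5 above and 3 below 0 with a median of 0.13, and without doublets 6 above and 2 below with 0.40. In it Nov, a matricellular growth regulator, was at 387 (360 to 415) and 182 (165 to 201) CPM, and its ratio was 0.501 (0.427 to 0.587) within sub-group 1, where it is strongest. Foxc2, a forkhead factor, was at 104 (90.6 to 120) and 62.1 (52.1 to 73.5) CPM. Fxyd5 was at 350 (324 to 377) and 399 (373 to 426) CPM, and Alpl, an alkaline phosphatase of bone-forming cells, at 70.9 (59.7 to 83.7) and 88.3 (76.3 to 102).

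The type IV collagen genes Col4a1 and Col4a2 were higher in knockout members, while the basement membrane list as a whole lay near the background. Of its 16 genes, 10 lay above and 6 below 0, where 63.5% of all genes lay above, with a median of 0.13 beside 0.16 over all genes, and none passed 2-fold in either direction. Without doublets 13 lay above 0 and the median was 0.43, where 6031 of all 10336 genes lay above 0 with a median of 0.08. The list median was -0.02 under the strict cell filter, -0.05 with median-of-ratios scaling and -0.03 in female-pattern cells. In the other cells it was -0.24. Col4a1 was at 729 (692 to 768) and 1178 (1133 to 1224) CPM, a ratio of 1.62 (1.51 to 1.72), and Col4a2 at 430 (401 to 459) and 695 (661 to 731) CPM, a ratio of 1.62 (1.49 to 1.76). These genes encode the 2 chains of the main type IV collagen. Of the other type IV genes, Col4a5 and Col4a6 had a median of 0 UMIs per member in both libraries after thinning to 2000 UMIs. Sparc, a collagen-binding chaperone, was at 1951 (1890 to 2013) and 2620 (2552 to 2689) CPM, and Col18a1 at 143 (127 to 161) and 184 (167 to 203).

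Col4a1, Col4a2 and Sparc had log2 ratios of 0.69, 0.69 and 0.42 in members and of -0.37, -0.48 and -0.24 in the other cells. Without doublets they were 1.14, 1.06 and 0.76, and under the strict cell filter 0.33, 0.36 and 0.21. Col4a1 was higher in the knockout library in 6 of 7 sub-groups, the exception being sub-group 5 with 4 wild-type members, and Col4a2 and Sparc in 7 of 7. In the pial-led sub-group 0, Col4a1 was at 2455 (2285 to 2633) and 3662 (3456 to 3876) CPM and Col4a2 at 1375 (1249 to 1510) and 1982 (1832 to 2142). The other laminin and nidogen genes did not follow as a group, with Lama1 at 226 (205 to 248) and 255 (234 to 277) CPM.

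Col4a1 and Col4a2 are shown because they moved together and start side by side on opposite strands of chromosome 8. Their RefSeq windows, Col4a1 at chr8:11312777-11313076 (minus strand) and Col4a2 at chr8:11312555-11312854 (plus strand) of GRCm38.p6, share 78 bases, and the 2 start sites lie 21 bases apart. Capitals again mark CCAAT or ATTGG, which starts 145 bases before the start of Col4a1 and 32 bases before that of Col4a2. The counts come from tags near the 3-prime ends of transcripts, which lie far apart for these genes.
Col4a1: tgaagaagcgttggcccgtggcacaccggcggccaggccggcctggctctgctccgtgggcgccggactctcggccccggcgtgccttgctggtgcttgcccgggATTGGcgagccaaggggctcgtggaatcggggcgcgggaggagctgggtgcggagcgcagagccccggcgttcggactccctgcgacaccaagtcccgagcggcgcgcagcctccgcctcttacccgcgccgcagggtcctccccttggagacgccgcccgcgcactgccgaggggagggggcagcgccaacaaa
Col4a2: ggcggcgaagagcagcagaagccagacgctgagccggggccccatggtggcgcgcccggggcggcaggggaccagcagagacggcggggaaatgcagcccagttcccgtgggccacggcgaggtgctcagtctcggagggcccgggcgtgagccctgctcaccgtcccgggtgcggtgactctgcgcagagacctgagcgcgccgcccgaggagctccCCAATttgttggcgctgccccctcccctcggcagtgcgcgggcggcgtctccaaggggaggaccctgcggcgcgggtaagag

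Other matrix genes went both ways. Fibril and network collagens had 9 of 15 measured genes above 0 with a median of 0.15, close to the 63.5% and 0.16 of all genes, and 12 above with 0.51 without doublets. Col14a1, a collagen that binds to fibrils, was at 39.0 (30.8 to 48.8) and 108 (94.7 to 123) CPM, but its log2 ratio was 0.01 in male-pattern cells. Col6a2 was at 218 (198 to 240) and 296 (273 to 320). Among 26 proteoglycan and glycoprotein genes, 12 lay above and 14 below 0, and 14 above and 12 below without doublets. Eln (elastin) was at 61.3 (50.9 to 73.2) and 114 (99.9 to 129) CPM and Sparcl1 at 473 (443 to 504) and 722 (687 to 759). Fn1 (fibronectin) stood lower at 731 (694 to 770) and 407 (381 to 435), Thbs1, an anti-angiogenic matrix protein gene, at 42.0 (33.5 to 52.1) and 12.9 (8.56 to 18.6), Fmod (fibromodulin) at 136 (120 to 153) and 63.9 (53.7 to 75.5) and Efemp1 at 84.1 (71.8 to 97.9) and 40.9 (32.9 to 50.4). Genes that process collagen or turn over matrix had 9 of 23 above 0 and a median of -0.12, and 14 of 23 with 0.11 without doublets.

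Retinoid genes showed no common direction. Of 17 measured, 7 lay above and 10 below 0, where 63.5% of all genes lay above, with a median of -0.04. Aldh1a2 and Crabp2, given above with the arachnoid list, had log2 ratios of -0.30 and -0.92 without doublets, when the list had 10 of 16 genes above 0 and a median of 0.20.

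Transcription factors of cranial mesenchyme were mostly lower by small amounts, with 20 of 24 measured genes below 0, where 36.5% of all genes lay below. The median was -0.25 and none passed 2-fold. Foxc1, needed for meningeal growth, was at 318 (294 to 344) and 243 (223 to 265) CPM, Zic2 at 248 (227 to 271) and 158 (142 to 175), Twist1 at 97.3 (84.0 to 112) and 63.5 (53.3 to 75.0), Osr1 at 163 (146 to 182) and 111 (97.3 to 126), and Ebf1 at 101 (87.8 to 116) and 51.5 (42.4 to 62.0). Lef1, a Wnt effector, was at 35.0 (27.2 to 44.2) and 49.7 (40.7 to 60.0). Without doublets 13 of 23 lay below 0 with a median of -0.01, beside 0.08 over all genes, and Foxc1 was at a log2 ratio of -0.04. Little of this direction was therefore left in members without doublets.

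Signals that meninges send to the cortex had 11 of 28 measured genes above 0, where 63.5% of all genes lay above, and a median of -0.05. Without doublets 18 of 28 lay above 0 and the median was 0.15, beside 0.08 over all genes, so the list had no stable direction. Sfrp1, a secreted Wnt antagonist, was at 171 (153 to 190) and 334 (311 to 360) CPM, with a log2 ratio of 0.95 in members and 0.93 in the other cells. Tgfb2 was at 39.0 (30.8 to 48.8) and 76.8 (65.6 to 89.4) CPM and Vegfa at 53.7 (44.0 to 64.9) and 66.2 (55.9 to 78.0).

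In the IGF axis 5 of 13 genes lay above 0, where 63.5% of all genes did, and 7 of 13 without doublets. Igfbp2 was at 2310 (2244 to 2379) and 1583 (1531 to 1637) CPM, and Igfbp3, a weaker-expressed binding protein gene, at 28.4 (21.4 to 36.8) and 8.74 (5.26 to 13.6). Imprinted growth genes had 5 of 14 above 0, and 7 of 13 without doublets, with Cdkn1c, a cell cycle inhibitor, at 1652 (1596 to 1710) and 1114 (1071 to 1160), Nnat at 1120 (1074 to 1168) and 744 (708 to 781), and Dlk1 at 40.5 (32.1 to 50.4) and 14.7 (10.1 to 20.8). Growth factor receptors had 8 of 15 above 0 with a median of 0.07, and 12 of 14 with 0.12 without doublets. Complement and coagulation genes had 2 of 8 above 0 with a median of -0.13, and 5 of 8 with 0.19 without doublets.

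Stress and interferon genes were lower in members and in the other cells alike. Of 13 interferon and antigen presentation genes 12 lay below 0, where 36.5% of all genes did. The median was -0.59 in members, -0.58 in the other cells and -0.29 in members without doublets. Ifit1 was at 41.0 (32.6 to 51.0) and 9.66 (5.98 to 14.8) CPM, Isg15 at 56.2 (46.3 to 67.7) and 20.2 (14.7 to 27.2), and Ifitm3 at 599 (566 to 634) and 351 (327 to 377). Immediate early genes, which respond to dissociation, had 13 of 18 below 0, with medians of -0.40 in members and -0.58 in the other cells, and 10 of 18 below 0 with -0.14 in members without doublets. Btg2 and Junb had log2 ratios of -1.42 and -1.07 in members and -1.25 and -1.40 in the other cells. Fos was at 927 (885 to 970) and 1157 (1112 to 1203) CPM, a log2 ratio of 0.32 in members and -0.34 in the other cells. Hypoxia and glycolysis genes had 9 of 14 below 0 in members and a median of -0.27 in members and other cells, and 9 of 13 below 0 with -0.15 in members without doublets.

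Among the 15 lowest genes, Cebpb, Chchd10 and Polr2l had log2 ratios of -1.72, -1.46 and -1.42 in members and -1.71, -1.53 and -0.91 in the other cells. A second set was low in members without a like difference elsewhere. Thsd4 was at 156 (139 to 174) and 58.0 (48.3 to 69.0) CPM with a log2 ratio of 0.46 in the other cells, Anpep, an aminopeptidase, at 51.2 (41.7 to 62.2) and 17.0 (12.0 to 23.5), Car14, a carbonic anhydrase, at 59.3 (49.0 to 71.0) and 20.7 (15.1 to 27.7), and Aifm3 at 62.3 (51.8 to 74.3) and 21.2 (15.5 to 28.2). Under the strict cell filter the log2 ratios of Car14 and Aifm3 were -0.28 and -0.31 in place of -1.32 and -1.36.

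Reelin itself was nearly missing from members, with Reln at 6.08 and 3.22 CPM and Trp73 at 0.507 and 0.460 CPM. Of the 12 genes of the Reelin and p73 list 5 were measured. All 5 lay above 0, led by Lrp8, where 63.5% of all genes did, and without doublets 4 of 4 did. Without members holding 3 or more neuron markers 3 of 4 did. In the other cells 4 of these 5 genes lay above 0, with a median of 0.29 beside 0.75 in members. Cell cycle genes had 6 of 12 above 0, but without doublets 0 of 11, with a median of -1.04 in place of 0.11. Mki67 was at 60.8 (50.4 to 72.7) and 125 (110 to 140) CPM and Top2a, a topoisomerase of dividing cells, at 128 (113 to 145) and 187 (169 to 206), with log2 ratios without doublets of -0.60 and -1.44.

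Vtn, which mural cells and pial fibroblasts express, was at 1299 (1249 to 1350) and 744 (708 to 781) CPM, while Rgs5 was at 0 by the rule and the other mural marker Kcnj8 gave 1 UMI in each library. The summed mural markers, 1375 and 808 CPM, were therefore mostly Vtn. Of the endothelial markers Cdh5 was at 124 (109 to 140) and 120 (105 to 135) CPM, and Cldn5 and Ly6c1 were at 0.

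**Figure D5:**
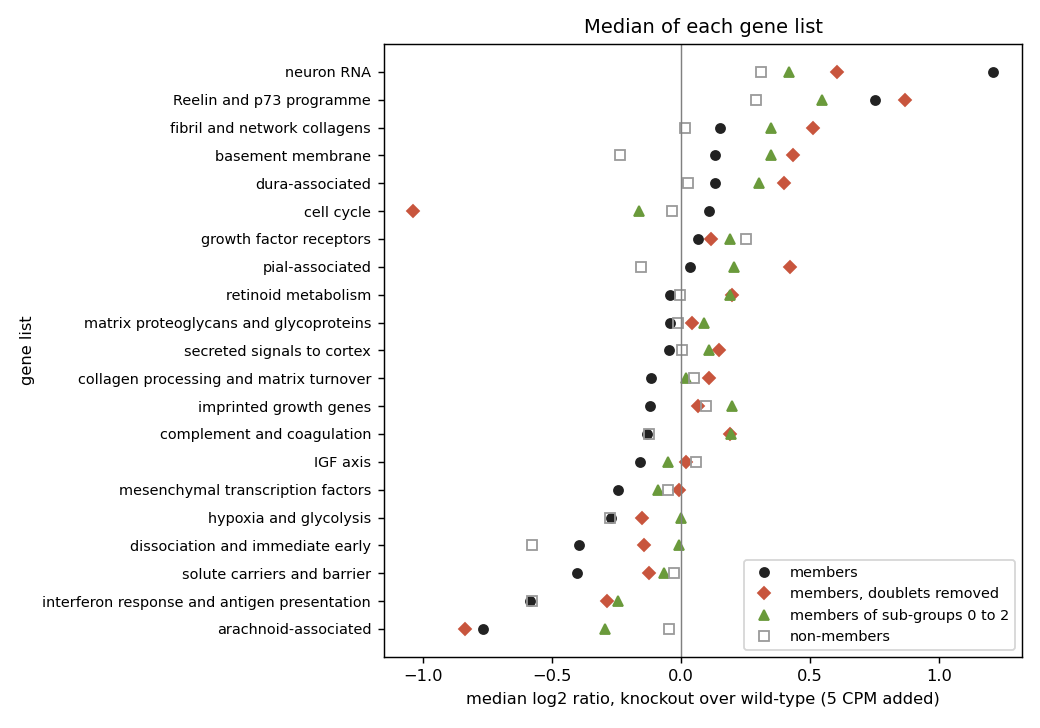
Median log2 ratio, knockout over wild-type with 5 CPM added (horizontal axis), of 21 gene lists (vertical axis) in members, in members without doublets, in members of sub-groups 0 to 2, and in the other cells. The arachnoid list lies at -0.77 in members, -0.84 without doublets and -0.29 in sub-groups 0 to 2, against -0.05 in the other cells. The neuron list moves from 1.21 to 0.60 when doublets are removed and lies at 0.42 in sub-groups 0 to 2.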

How the data were processed

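Single-cell RNA sequencing was done on 2 libraries, 1 per genotype. The deposited values are UMI counts for each gene in each barcode. The submitters' processing notes name Cell Ranger 7.1.0 and the mm10 build. How barcodes were filtered is not stated there. The members and gene lists were chosen with earlier results of these data known.

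Member counts were added up in each library and scaled to CPM. With 1 library per genotype, and cells being no replicates, nothing was tested. Shares carry Clopper-Pearson, CPM values Poisson and ratios conditional exact intervals at 95%. Member sums held 1974049 and 2174185 UMIs, with a median of 10727.5 and 6874 per member. Genes with 20 UMIs over both libraries were measured. Scrublet, run through scanpy 1.11.5, called doublets, and members were clustered with leidenalg 0.10.2 (1000 variable genes, 15 components, 15 neighbours, resolution 0.5). Positions and windows came from GENCODE and RefSeq on the same build. On simulated sums of 3847 genes, the right direction was found for 71 of 71 genes at 1.5-fold, 66 of 66 at 2-fold and 63 of 63 at 4-fold, and 0 of 3647 unchanged genes passed 2-fold. The simulation held Poisson counting error alone, for genes at 50 CPM or more. It therefore checks the calculation and gives no rate of false calls for these libraries or for genes near 20 UMIs.

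Named genes were any of 22 lists, the 15 highest and 15 lowest log2 ratios at 50 CPM or more, and the 20 most enriched in wild-type members, without haemoglobin, mitochondrial, ribosomal, sex-linked and predicted genes. Alternatives were other cell filters, marker counts, doublet removal, thinning, each sex pattern, scalings, priors and gene filters. Limits to sub-groups 0 to 2 were chosen after seeing the data. Some items are not reported here.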

Additional observations from a re-analysis of the deposited data

Results flagged for a closer look

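The feature list holds 3 entries with names of reporter parts, and the labels name no reporter allele. In members, the feature called Tomato gave 75 UMIs (wild-type) and 35 UMIs (knockout), and the feature called Stop-Ai9 gave 1429 and 615. All 4 counts are above the 3 counts that a count of 0 allows, and no library without these features is at hand as a control. In the other cells Tomato was at 31.7 and 13.9 CPM and Stop-Ai9 at 566 and 192 CPM, close to the 38.0 and 16.1 and the 724 and 283 CPM in members. The feature called LacZ gave 0 UMIs in both, which allows up to 1.52 and 1.38 CPM in members.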

How the results depend on the processing

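Among genes given by name whose interval lay on 1 side of no difference, 6 turned direction, in 11 values. Without doublets Mki67 was at -0.60 and Top2a at -1.44, in sub-groups 0 to 2 at -0.010 and -0.55, and with both limits at -0.27 and -0.74. Ptgds was at 0.045 with 2000 UMIs and 5% mitochondrial UMIs as limits. Male-pattern cells gave -0.073 for Fxyd5, 0.0022 for Slc6a13 and 0.14 for Vtn, and sub-groups 0 to 2 gave 0.030 for Slc6a13. Genes with small ratios turned more easily, and with median-of-ratios scaling Gja1 and S100a6 were both at -0.17 and Lama1 at -0.01. The share ratio of members moved to 0.595 without doublets. Genes 2-fold or more higher numbered 257 without doublets, 485 with the rule applied after thinning, 396 without cells holding neuron markers, 159 in sub-groups 0 to 2, 177 there without doublets, and 1192 with 1 CPM added. Genes 2-fold or more lower numbered 231 without doublets, 201 in male-pattern cells, 209 with median-of-ratios scaling and 254 with 1 CPM added. The arachnoid median was -0.38 under the strict limits, -0.41 with the thinned rule, -0.67 with 4 markers asked for, -0.38 without neuron-marker cells, -0.62 in female-pattern and -0.53 in male-pattern cells, -0.29 in sub-groups 0 to 2 and -0.57 as a mean over cells. The pial median was 0.42 without doublets, -0.28 under the strict limits, 0.27 in male-pattern cells and 0.32 in sub-groups 0 to 2 without doublets, where the dura median was 0.46. The neuron RNA median was 0.60 without doublets, 0.69 without neuron-marker cells, 1.84 in male-pattern cells, 0.42 in sub-groups 0 to 2, 0.33 there without doublets and 0.71 as a mean over cells. Among members with further fibroblast markers, wild-type, the share was 97.7% under the strict limits and without Igf2, 97.6% with the thinned rule and in female-pattern cells, 98.4% with 4 markers or 10 marker UMIs, and 100% in male-pattern cells. Among members with further fibroblast markers, knockout, it was 96.3% with the thinned rule, 96.6% with 4 markers, 95.95% without Igf2, 97.1% with 10 marker UMIs, 96.0% in sub-groups 0 to 2 and 96.2% there without doublets. Resolution 1 gave 11 sub-groups. The causes were not tested. No paired analysis was possible because each genotype has 1 library, and no replicate could be left out. Depth limits genes near 20 UMIs, and intervals cover counting error only.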
